A study of Homo sapiens with 8 samples.

Results

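The clustered histone genes encode the linker histone H1 and the core histones H2A, H2B, H3 and H4, and lie in the HIST1 to HIST4 gene clusters. They were taken as the rows of the count table whose symbol names one of these histones in a HIST cluster, leaving out the 8 rows whose symbols mark pseudogenes by PS and a number. This gave 60 of the table's 35394 genes: 5 of class H1, 12 of H2A, 19 of H2B, 12 of H3 and 12 of H4. By cluster, 41 were in HIST1, 14 in HIST2, 4 in HIST3 and 1 in HIST4. GENCODE release 29 types 56 of the 60 as protein-coding and HIST2H2BB, HIST2H2BC, HIST2H2BD and HIST3H2BA as pseudogenes. These pseudogenes stayed in the set and in its sums. Some protein-coding genes of the clusters, among them HIST1H2AK, HIST1H2AL and HIST1H2AM, had no row. HCT116, a human colorectal cancer epithelial line labelled as carrying a ras mutation, was exposed for 24 h to Pien Tze Huang (PZH), a formula of traditional Chinese medicine, in 4 samples, and 4 control samples received DMSO. Poly(A) RNA was sequenced, and total counts were 19288836 to 19917571 in DMSO and 18144117 to 18868057 in PZH libraries. The labels give no dose and do not say whether replicates came from separate cultures, so p-values measure the spread between these samples, which may be technical. The line's epithelial label was checked on 8 markers, of which EPCAM, KRT8, KRT18, KRT19, CDH1 and CDX2 passed the expression filter in these libraries, while VIL1 was near 0 and CDX1 had no count. Summed fibroblast markers, nearly all of it COL1A1 with COL1A2 at 0, were 11.7 to 14.3 CPM (counts scaled to a common library total) in DMSO and 17.5 to 21.3 in PZH, and immune and endothelial marker sums stayed at or below 3.41 CPM. Their part in the results was not tested.

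Replication-dependent histone genes supply the proteins that package newly copied DNA, and their mRNA accumulates in S phase. Unlike other mRNAs, most of their transcripts end in a conserved stem-loop and carry no poly(A) tail. The stem-loop is bound by SLBP, and the end is cut with the help of the U7 small nuclear RNA particle. Many of these genes also have a poly(A) site further downstream, and transcripts that reach it are polyadenylated. A library made from poly(A) RNA therefore reads mainly this second form, and the stem-loop form was not measured here. In these bulk samples, fewer cells in S phase and less RNA per cell cannot be told apart.

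The stem-loop is the feature that sets these mRNAs apart, so it is shown for the genes with enough counts to test whose transcript models in GENCODE release 29 (GRCh38) held it. The search asked for the histone stem-loop pattern, 6 paired bases on each side of a 4-base loop, in the transcript strand. Capitals mark the paired bases, and 5 bases are given on either side.
HIST1H2AC: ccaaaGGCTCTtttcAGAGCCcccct
HIST1H2BD: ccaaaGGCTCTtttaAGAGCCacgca
HIST1H3E: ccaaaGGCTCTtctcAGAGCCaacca
HIST1H2BN: acaacGGCTCTtttcAGAGCCaccta
HIST2H2BE: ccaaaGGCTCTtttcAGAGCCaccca
HIST3H2A: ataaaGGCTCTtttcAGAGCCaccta
HIST1H4I: aaaaaGGCCCTttttAGGGCCcctaa
HIST1H3H: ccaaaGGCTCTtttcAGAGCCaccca
The 4 core histone classes share the stem nearly base for base, and HIST1H4I differed from the H2A, H2B and H3 genes shown within the stem. Among all 60 genes, 30 had the pattern in a transcript model, in 5 forms, the commonest of them in 17 genes. The pattern stood in 0.172% of the 206602 transcripts of other genes, a share by transcript and not by gene. In HIST1H1C, HIST1H2BK, HIST1H2AG and HIST1H1E no model held these letters. The models of HIST1H1C and HIST1H2BK hold the coding sequence only.

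Transcript models reach past the stem-loop in most of the tested genes. Of 12 genes that passed the expression filter, 7 had a model that ran more than 100 bases beyond the stem-loop, against 13 of the 48 that did not pass. The extension was 1862 bases in HIST1H3E, 1729 in HIST2H2BE, 1128 in HIST1H2AC and 39 in HIST1H2BD. A poly(A) signal, AATAAA or ATTAAA, lay in the last 40 bases of a model in 8 of the 12 and in 16 of the 48 genes, and in 30.2% of transcripts of other genes. Histone genes were counted if any model held the signal, but other genes by single transcript, so the shares are unlike measures. The median of the longest model was 1265.5 bases in the 12 genes and 515.5 bases in the 48. Only the coding sequence was in the models of 2 of the 12 and 19 of the 48 genes. Such models cannot show a stem-loop or what lies past it, so these contrasts cannot be told apart from how complete the models are. HIST1H1C (642 bases) and HIST1H2BK (381 bases), whose models hold the coding sequence only, passed, while the pseudogene HIST2H2BC (6440 bases) did not. Whether transcript length bore on passing was not tested.

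Polyadenylated histone RNA was a minute part of each library and was higher in PZH. The 60 genes held 796, 817, 735 and 770 counts in DMSO replicates 1 to 4 and 1896, 1569, 1585 and 1232 counts in PZH replicates 1 to 4. That was 0.00374% to 0.00422% of counts in DMSO and 0.00667% to 0.0102% in PZH, and the groups did not overlap. In CPM on library totals, the sum went from 39.9 ± 1.95 to 84.7 ± 14.4 (mean ± SD, n = 4 per group), a ratio of 2.12 ± 0.376. With TMM factors, which rescale libraries to the bulk of their genes, the ratio was 2.54. HIST1H1C made up 13.6 ± 1.01% of the histone counts in DMSO and 44.4 ± 1.22% in PZH. Without HIST1H1C the ratio on library totals was 1.37, and all 4 PZH libraries still lay above all 4 DMSO libraries.

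The excess was uneven between classes. Linker histone H1 went from 5.62 ± 0.603 to 38.6 ± 6.34 summed CPM, a ratio of 6.87 ± 1.35. H3 went from 2.68 ± 0.634 to 5.74 ± 1.21 CPM and H2B from 14.4 ± 1.34 to 21.8 ± 4.05 CPM, and in both the groups did not overlap. H2A stood at 12.3 ± 1.39 and 14.01 ± 3.19 CPM and H4 at 4.93 ± 0.430 and 4.66 ± 0.581 CPM, with overlapping groups. The H1 sum was nearly all HIST1H1C, which held 5.43 of the 5.62 CPM in DMSO and 37.6 of the 38.6 CPM in PZH. The sums of H2A and H3 also rested on 1 gene each: without HIST1H2AC the H2A ratio was 0.586, and without HIST1H3E the H3 ratio was 0.583. By cluster, HIST1 went from 32.5 ± 0.991 to 76.7 ± 13.4 CPM and HIST2 from 2.38 ± 0.283 to 4.12 ± 0.783, while HIST3 stood at 4.84 ± 1.10 and 3.89 ± 0.677 CPM.

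**Figure D1:**
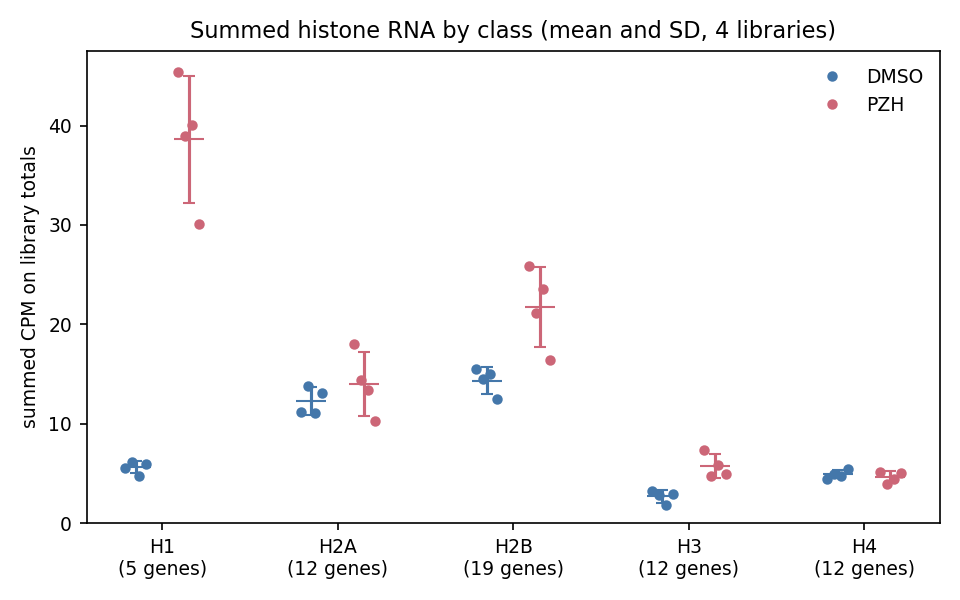
Summed CPM on library totals (vertical axis) of the genes of each histone class (horizontal axis, with the number of genes), for DMSO in blue and PZH in red; points are libraries and bars the mean and SD of 4 libraries. H1, nearly all of it HIST1H1C, goes from 5.62 to 38.6 CPM, while H2A and H4 overlap between groups.

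Of the 60 genes, 12 passed the expression filter, which asks for a CPM equal to 10 counts in a library of median size (0.524 CPM) in at least 4 libraries. These 12 held 92.4% of all histone counts. They were 2 genes of H1, 3 of H2A, 4 of H2B, 2 of H3 and 1 of H4. In 9 of them the minimum was reached in all 8 libraries. HIST1H1E reached it in the 4 PZH libraries and in 0 DMSO libraries, so its passing already required a difference. HIST1H2AG and HIST1H3H reached it in the 4 DMSO libraries and in 2 and 1 PZH libraries.

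Among the 12 tested histone genes, 7 rose in PZH, 1 fell and 4 did not pass the test. Of the 9 that reached the filter's minimum in all 8 libraries, 6 rose, and the gene that fell was not among them. The test was edgeR's quasi-likelihood test on all 15006 genes that passed the filter, and calls were made at 0.05 after Benjamini-Hochberg adjustment. Of all these genes 80.3% were called, 39.3% as higher and 40.9% as lower, and 15.8% were called at least 2-fold higher and 18.9% at least 2-fold lower. All 7 histone genes that rose were at least 2-fold higher, and the 1 that fell was more than 2-fold lower. The 8 called genes were also those whose groups did not overlap in TMM-scaled CPM, which held for 36.6% of all tested genes upward and 38.4% downward. The median log2 fold change of the 12 genes was 1.41, beside -0.02 over all tested genes, and the filter favours genes that are high in a group. Without scaling factors the log2 fold changes of all genes moved by a median of -0.26, and the split over all genes went to 4473 higher and 7670 lower from 5901 and 6143. The histone split remained 7 higher and 1 lower, with all 8 called genes shared.

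**Figure D2:**
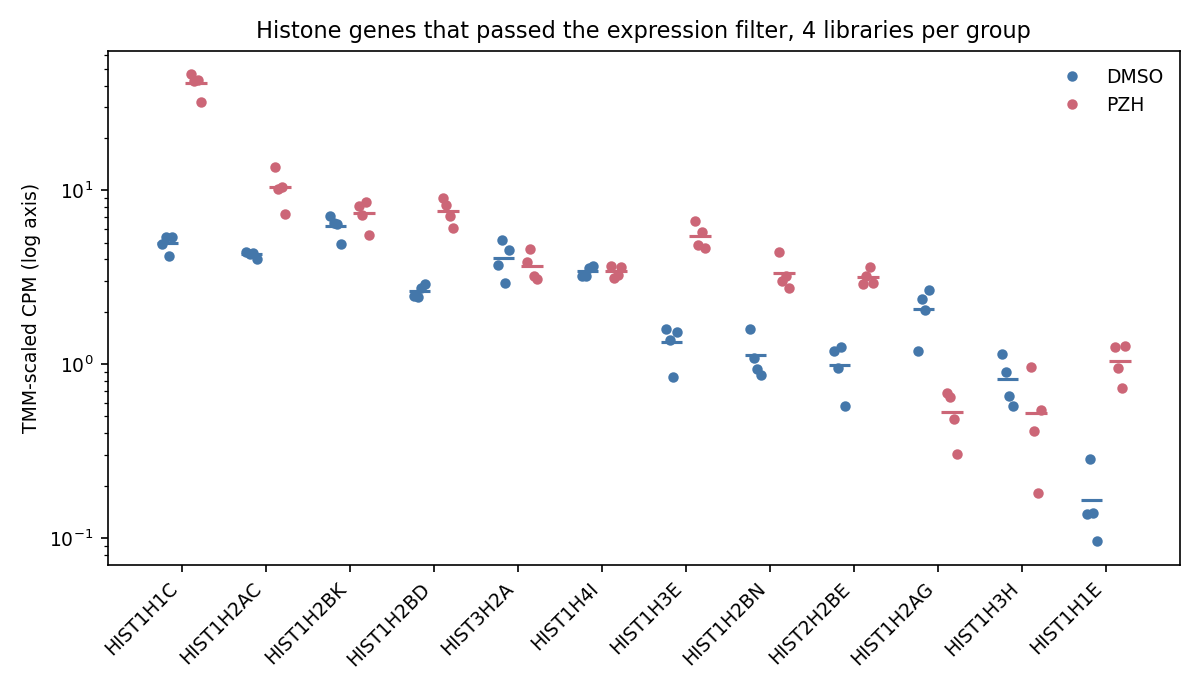
TMM-scaled CPM (log axis) of the 12 histone genes that passed the expression filter; each point is a library, DMSO in blue and PZH in red, and lines are the means of 4 libraries. PZH points lie above all DMSO points for 7 genes, led by HIST1H1C, and below them for HIST1H2AG.

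Linker histones bind the DNA between nucleosomes and help to compact chromatin, and HIST1H1C was the only H1 gene that reached the filter's minimum in both groups. HIST1H1C, which encodes histone H1.2, had 108, 113, 90 and 113 counts in DMSO and 822, 718, 714 and 534 in PZH. The lowest PZH library thus lay several times above the highest DMSO library. Its level rose 8.28-fold from 4.97 ± 0.559 to 41.1 ± 6.11 TMM-scaled CPM (log2 fold change 3.05 ± 0.112 SE, adjusted p = 5.85e-17 in edgeR's test). HIST1H1E, which encodes histone H1.4, had 3, 6, 3 and 2 counts in DMSO and 22, 16, 12 and 21 in PZH. It rose 6.19-fold, with the wider error of a gene with few counts (log2 fold change 2.63 ± 0.424, edgeR adjusted p = 6.46e-06), but it was tested only because its PZH libraries passed the filter, so its call adds no support for the class. The other H1 rows were almost empty: HIST1H1T had 2 counts in all libraries, HIST1H1D 1 and HIST1H1A 0.

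Of the core histones, H3 forms with H4 the tetramer at the centre of the nucleosome. HIST1H3E had 35, 29, 18 and 32 counts in DMSO and 118, 82, 95 and 77 in PZH, and rose 4.10-fold (log2 fold change 2.03 ± 0.211, edgeR adjusted p = 7.76e-09). HIST1H3H had 25, 19, 14 and 12 counts in DMSO and 17, 7, 3 and 9 in PZH. These groups overlapped, and the gene did not pass the test (log2 fold change -0.62 ± 0.408, edgeR adjusted p = 0.167). PZH replicate 1 decided this, since without it HIST1H3H was called lower (log2 fold change -1.07, edgeR adjusted p = 0.0348). HIST1H3H passed the filter through its 4 DMSO libraries, with only 1 PZH library at the minimum, so that call adds no support for a fall in the class. The only tested H4 gene, HIST1H4I, had 70, 68, 77 and 77 counts in DMSO and 65, 53, 54 and 60 in PZH. On the TMM scale it stood at 3.42 ± 0.249 and 3.43 ± 0.272 CPM, and without scaling factors at a log2 fold change of -0.25 (edgeR adjusted p = 0.166).

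H2B genes, whose products pair with H2A on the outside of the tetramer, rose in 3 of 4 tested cases. HIST1H2BD had 54, 51, 59 and 60 counts in DMSO and 159, 139, 117 and 100 in PZH, and rose 2.89-fold. HIST2H2BE had 26, 20, 27 and 12 counts in DMSO and 51, 54, 60 and 48 in PZH, and rose 3.16-fold. HIST1H2BN had 35, 23, 20 and 18 counts in DMSO and 78, 51, 53 and 45 in PZH, and rose 2.97-fold. In each of these the groups stood apart, with edgeR adjusted p-values of 7.94e-09, 1.86e-06 and 3.89e-06. HIST1H2BK had the most counts of the H2B genes, 155, 136, 137 and 102 in DMSO and 144, 122, 141 and 91 in PZH. Its groups overlapped and it did not pass (log2 fold change 0.25 ± 0.149, edgeR adjusted p = 0.133). PZH replicate 4 decided that call, since HIST1H2BK was called higher without it (log2 fold change 0.37, edgeR adjusted p = 0.0242), whereas without scaling factors its log2 fold change was -0.01.

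H2A genes parted: 1 of 3 tested rose, 1 fell and 1 did not pass. HIST1H2AC had 97, 91, 94 and 84 counts in DMSO and 241, 173, 173 and 120 in PZH. It rose 2.43-fold from 4.28 ± 0.185 to 10.4 ± 2.60 TMM-scaled CPM (log2 fold change 1.281 ± 0.156, edgeR adjusted p = 1.08e-07). HIST1H2AG went the opposite way, with 26, 50, 44 and 56 counts in DMSO and 12, 11, 8 and 5 in PZH. It fell 3.85-fold from 2.07 ± 0.642 to 0.529 ± 0.174 TMM-scaled CPM (log2 fold change -1.95 ± 0.331, edgeR adjusted p = 1.32e-05). HIST1H2AG passed the filter through its 4 DMSO libraries, with only 2 PZH libraries at the minimum, so its call adds no support for a fall in the class. HIST3H2A had 81, 109, 63 and 95 counts in DMSO and 68, 78, 53 and 51 in PZH, overlapping groups that did not pass the test (log2 fold change -0.14 ± 0.191, edgeR adjusted p = 0.493).

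**Figure D3:**
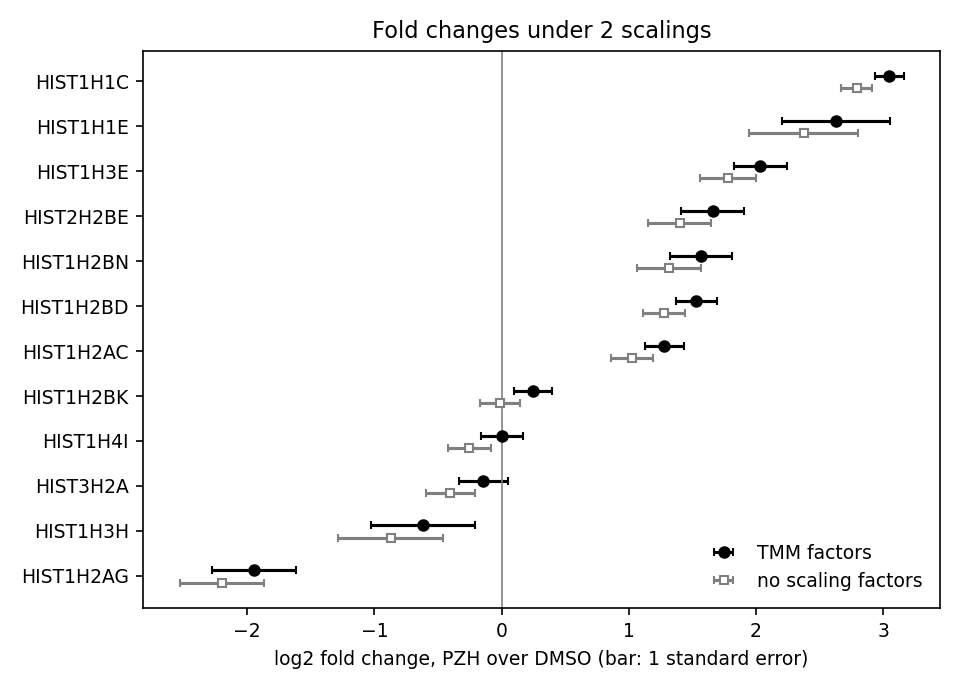
Log2 fold change of PZH over DMSO (horizontal axis, bars of 1 standard error) for the 12 tested histone genes, with TMM factors as filled circles and without scaling factors as open squares. HIST1H1C is at 3.05 and HIST1H2AG at -1.95 with TMM factors, and leaving the factors out moves every gene to the left without moving the 8 called genes across 0.

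Within the PZH group, replicate 1 held the highest and replicate 4 the lowest TMM-scaled level in 8 of the 12 genes each. The count of called genes was 7 higher and 1 lower with PZH replicates 1 and 2 only and also with replicates 3 and 4 only. Over 18 alternatives, the log2 fold change ranged from 2.79 to 3.18 for HIST1H1C, from 1.03 to 1.49 for HIST1H2AC and from -2.35 to -1.61 for HIST1H2AG.

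Histone genes resemble each other, and nothing in the labels says how the authors counted reads that match several genes. Of the 50-base stretches in a gene's transcript models, 89.9% to 100% occurred in no other gene for 11 of the 12 tested genes. HIST1H2BK was the exception at 25.9%, so its value is uncertain where reads were split between copies. HIST1H2BD is overlapped by AL353759.1 on the opposite strand and by the pseudogene LARP1P1 on the same strand. HIST1H2BN is overlapped by HIST1H2AK and the pseudogene HIST1H2BPS2 on the opposite strand and by HIST1H2AL on the same strand. Whether strand was used in counting is not stated either, so reads of these partners could enter their values. Per kilobase of exon in GENCODE models, HIST1H1C stood at 7.74 in DMSO and 64.0 TMM-scaled CPM in PZH, HIST1H2AC at 2.57 and 6.23, and HIST1H3E at 0.498 and 2.05. On that length-scaled level HIST1H2BK led in DMSO at 16.3 and HIST1H1C in PZH. Both genes have coding-only models, and whether these short lengths raised the values was not tested.

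The 48 genes that did not pass the filter had few counts and, summed, showed no shift. They held 81, 102, 89 and 107 counts in DMSO and 99, 65, 102 and 71 in PZH, and 6 of them had no count in any library. Of the 42 that were counted, 18 had more counts in PZH, 20 had more in DMSO and 4 had equal sums, before any correction for depth. The 3 with the most counts were HIST3H2BB, HIST1H2BJ and HIST1H4E. Over 4 libraries HIST3H2BB had 30 counts in DMSO and 38 in PZH, HIST1H2BJ 26 and 36, and HIST1H4E 26 and 32. Exact binomial 95% intervals of their ratios per unit depth, which cover counting error only, were 0.806 to 2.23, 0.858 to 2.52 and 0.750 to 2.27. At this depth no difference was detectable in them.

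**Figure D4:**
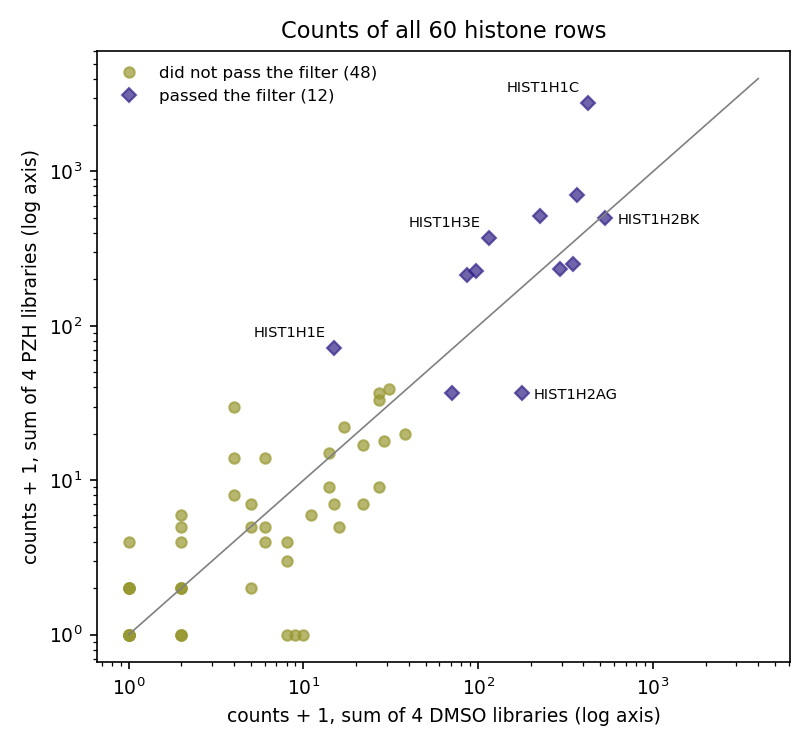
Counts plus 1 summed over 4 DMSO libraries (horizontal, log axis) and over 4 PZH libraries (vertical, log axis) for all 60 histone rows; diamonds are the 12 that passed the filter, circles the 48 that did not, and the line marks equal sums. HIST1H1C lies far above the line with 424 and 2788 counts, and HIST1H2AG below it with 176 and 36.

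Most H2A and H2B genes stand head to head with a partner of the other class, separated by a short shared promoter region. In GENCODE order, 10 such pairs less than 1000 bases apart were among the 60 genes, with the pseudogenes HIST2H2BC and HIST2H2BD counted as partners. In 3 of them a gene was called and its partner did not pass the filter. Beside HIST1H2AC, which went from 366 to 707 summed counts, HIST1H2BC went from 37 to 19 (ratio per unit depth 0.542, exact 95% interval 0.294 to 0.967). Beside HIST2H2BE, which went from 85 to 213, HIST2H2AC went from 28 to 17 (ratio 0.641, interval 0.329 to 1.21). Beside HIST1H2AG, which went from 176 to 36, HIST1H2BJ went from 26 to 36 (ratio 1.46, interval 0.858 to 2.52). The intervals of HIST2H2AC and HIST1H2BJ include 1, so no direction is shown for them. That of HIST1H2BC excludes 1 but covers counting error only. In the fit with no filter HIST1H2BC was not called (log2 fold change -0.63, edgeR adjusted p = 0.393), so no direction is shown for it either. Other pairs with few counts went different ways. Both partners had fewer counts in PZH in HIST1H2BL (7 in DMSO and 0 in PZH) with HIST1H2AI (13 and 8). Both had more in HIST1H2BG (1 and 4) with HIST1H2AE (0 and 1). HIST2H2AA3 (1 and 5) had more beside HIST2H2BD (21 and 6), which had fewer. No 50-base stretch in the models of HIST2H2AA3 occurs in it alone, and most stretches of HIST2H2BD and HIST1H2AI also occur in other genes. The counts of these genes may therefore hold reads of other genes, and no direction is shown for them. Whether partners differed from each other was not tested.

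Promoters are shown for the linker histone genes and for the H2A genes that moved in opposite directions. The sequences are the 250 bases before the start in RefSeq on GRCh38.p14, 5′ to 3′ in the gene's direction. Capitals mark 4 short motifs known from histone promoters, on either strand and with overlaps allowed: the TATA box TATAAA, the CCAAT box, the octamer ATTTGCAT and the H1 box AAACACA.
HIST1H1C, chr6:26056471-26056720, minus strand: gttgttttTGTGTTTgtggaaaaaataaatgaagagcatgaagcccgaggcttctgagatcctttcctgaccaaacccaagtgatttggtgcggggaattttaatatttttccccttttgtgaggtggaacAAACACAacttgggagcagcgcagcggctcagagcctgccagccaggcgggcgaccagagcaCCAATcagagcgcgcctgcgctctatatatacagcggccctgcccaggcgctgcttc
HIST1H1E, chr6:26156079-26156328, plus strand: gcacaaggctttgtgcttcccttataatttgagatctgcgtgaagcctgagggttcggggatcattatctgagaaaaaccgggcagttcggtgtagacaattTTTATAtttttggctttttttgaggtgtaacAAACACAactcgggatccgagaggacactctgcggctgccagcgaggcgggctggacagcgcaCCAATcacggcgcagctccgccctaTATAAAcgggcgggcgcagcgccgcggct
HIST1H2AC, chr6:26123922-26124171, plus strand: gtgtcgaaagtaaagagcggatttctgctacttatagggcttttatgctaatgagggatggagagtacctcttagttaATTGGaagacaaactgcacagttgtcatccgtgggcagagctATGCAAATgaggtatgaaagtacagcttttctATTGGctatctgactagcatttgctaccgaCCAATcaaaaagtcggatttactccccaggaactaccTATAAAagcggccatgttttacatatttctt
HIST1H2AG, chr6:27132793-27133042, plus strand: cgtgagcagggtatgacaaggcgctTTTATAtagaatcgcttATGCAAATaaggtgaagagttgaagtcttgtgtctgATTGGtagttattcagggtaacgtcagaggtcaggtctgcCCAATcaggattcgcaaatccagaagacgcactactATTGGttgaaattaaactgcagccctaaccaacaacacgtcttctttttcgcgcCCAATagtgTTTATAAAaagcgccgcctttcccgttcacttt
Of the 60 genes, 47 matched a single RefSeq gene with a promoter. AAACACA was in all 5 H1 promoters and in 0 promoters of the other classes, against 4.82% of all 35116 promoters. ATTTGCAT was in 7 of 11 H2A and 7 of 11 H2B promoters and in none of the 25 promoters of H1, H3 and H4, against 1.63% of all promoters. CCAAT was in 38 of the 47 but in 1 of 10 H4 promoters, and in 32.0% of all promoters, and TATAAA was in 35 of the 47 against 10.7%. AAACACA and ATTTGCAT were thus tied to class, whereas TATAAA occurred in every class. HIST1H2AC, which rose, and HIST1H2AG, which fell, both held the TATA box, the CCAAT box and the octamer.

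The RNA of the machinery around these genes was read from lists of other genes, and each list's calls stand against 39.3% higher and 40.9% lower among all tested genes. Of 27 genes listed for histone mRNA end processing, 20 fell and 6 rose, with a median log2 fold change of -0.57 beside -0.02 over all tested genes. The list also holds the transcription coactivator NPAT, and whether its genes act on histone mRNA alone was not tested. SLBP, the protein that binds the stem-loop, stood at 151, 152, 156 and 153 TMM-scaled CPM in DMSO and 77.1, 79.2, 75.9 and 81.9 in PZH. It fell 1.94-fold (log2 fold change -0.96 ± 0.044, edgeR adjusted p = 3.73e-15). NPAT, the coactivator of histone transcription, and its partner CASP8AP2 fell 1.74-fold and 1.79-fold. Among subunits of the U7 particle, LSM11 fell 1.36-fold and SNRPD3 fell 2.26-fold, whereas LSM10 rose 1.93-fold. ZNF473, a zinc finger protein that binds the U7 particle, rose 3.21-fold from 22.7 ± 0.746 to 73.0 ± 8.66 CPM. SRRT, which links the mRNA cap to end processing, fell 2.18-fold.

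Calls among genes for histone mRNA decay were split much as over all tested genes, of which 39.3% were higher and 40.9% lower. Of 18 decay genes 8 rose and 9 fell, among them the uridylating enzyme ZCCHC6 (2.71-fold higher), the exonuclease XRN1 (1.72-fold higher), LSM4 of the LSM ring (2.83-fold lower) and the exosome nuclease EXOSC10 (1.71-fold lower). Among 14 genes for poly(A) site choice and poly(A) tails there were 6 higher and 7 lower calls with TMM factors, and 4 and 8 with none. The cleavage factor subunits CPSF6 and NUDT21, which favour distal poly(A) sites, fell 2.13-fold and 1.67-fold, while CSTF3 of the cleavage stimulation complex rose 2.11-fold and the poly(A) polymerase PAPOLG rose 1.75-fold. Among 8 transcription factors of histone promoters there were 4 higher and 2 lower calls with TMM factors, and 2 and 3 with none. The CCAAT-binding subunit NFYA rose 2.02-fold, the H4 promoter factor HINFP rose 1.69-fold, YY1 fell 1.39-fold and E2F1 fell 7.43-fold.

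Histone variants outside the clusters have mRNAs that are mostly polyadenylated. These variants fell in 7 of 12 cases and rose in 4 (median log2 fold change -0.97), beside 40.9% lower and 39.3% higher among all tested genes. Some of them, unlike most variants, are made mainly in 1 phase of the cell cycle. H2AFX, the H2A variant of DNA damage signalling whose mRNA is also made in S phase, fell 5.24-fold from 152 ± 6.60 to 29.1 ± 3.55 CPM. CENPA, the H3 variant of centromeres, whose mRNA peaks after S phase, fell 5.34-fold and H2AFV fell 2.32-fold. The linker histone variant H1FX rose 2.71-fold from 53.6 ± 4.51 to 145.5 ± 9.65 CPM. A further replacement linker histone, H1F0, named after its values were seen, rose 2.39-fold from 784 to 1872 CPM.

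Histone chaperones, which carry histones to DNA, fell in 20 of 25 tested cases and rose in 3, beside 40.9% and 39.3% of all tested genes. ASF1B fell 15.4-fold, TONSL 7.79-fold, CHAF1A 6.62-fold and NASP 3.43-fold. S phase transcripts fell in 11 of 12 cases and 1 rose. Among them GINS2 fell 14.7-fold, the nucleotide synthesis genes RRM2 and TYMS fell 11.0-fold and 10.2-fold, and cyclin CCNA2 fell 6.68-fold. The part of fewer cells in S phase, of end processing or of poly(A) site choice in the histone values was not tested.

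**Figure D5:**
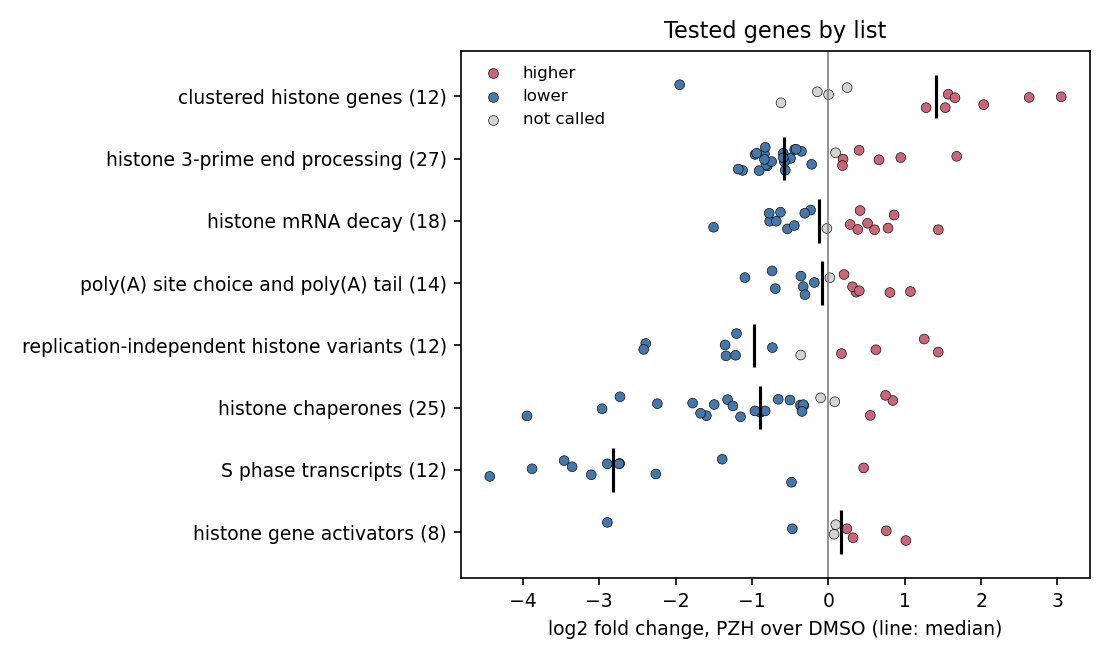
Log2 fold change of PZH over DMSO (horizontal axis) of each tested gene in the clustered histone set and in 7 lists of other genes (rows, with the number tested); red genes were called higher, blue lower and grey not called, and black lines are medians. The median is 1.41 for the histone genes and -0.57 for the list of histone mRNA end processing, and 11 of 12 S phase transcripts lie in blue.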

How the data were processed

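Poly(A) RNA of 8 HCT116 samples, 4 of DMSO and 4 of PZH, was read from the authors' deposited count table, whole numbers by gene symbol with no normalization. HISAT2 2.1.0, StringTie 1.3.3b, DESeq 1.28.0 and FastQC 0.11.5 appear, with no roles, in the submitters' processing notes. For build, annotation and strand use: not given in the sources used here. No replicates were merged, since pairs exceeded sampling noise (chi-square over its degrees of freedom was 2.39 to 2.81 in DMSO and 4.03 to 12.3 in PZH). Genes were kept with filterByExpr (minimum count 10, total 15) and tested with edgeR 4.0.16 in R 4.3.3 (TMM, glmQLFit, glmQLFTest, group only, two-sided); a standard error is the log2 fold change over the square root of F. Sums over genes have no test. The 25 rows with names turned into dates stayed in library sizes. Sequences came from GENCODE 29 and RefSeq tables (Python 3.11.15), and all 60 symbols were in GENCODE. Alternatives were RLE, upper quartile or no factors, 2 other filters, DESeq2 1.42.0, the replicate block, an adjusted p of 0.01 and leaving libraries out. The genes and lists were chosen with earlier results of these data known. Values are named for every tested histone gene, the 3 untested ones with most counts, 6 core processing genes and, per list, up to 4 called genes of smallest p.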

Additional observations from a re-analysis of the deposited data

How the results depend on the processing

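The 7 histone genes called higher and the 1 called lower were the same under RLE, upper quartile and no factors, DESeq2 and an adjusted p of 0.01. A minimum of 1 CPM in 4 libraries left 10 histone genes and 6 higher calls, as HIST1H1E was no longer tested. With no filter 54 were tested, of which 8 were higher and 3 lower. Leaving out 1 library at a time gave 7 to 8 higher and 1 to 2 lower calls. The signs of 3 uncalled genes turned: HIST1H2BK with no factors (-0.011), HIST3H2A with PZH replicates 1 and 2 only (0.067), and HIST1H4I with upper quartile (-0.070), no factors (-0.25), no filter (-0.010) or with 1 library left out, where it ranged from -0.034 without DMSO replicate 1 to 0.051 without PZH replicate 2, negative too without DMSO replicate 2 (-0.029), PZH replicate 1 (-0.012) and PZH replicate 4 (-0.018). The ratio of summed CPM moved from 2.12 to 2.54 with TMM and 2.58 with RLE factors and to 1.37 without the gene with most counts. With RLE factors it was 8.33 for H1, 1.84 for H2B and 1.15 for H4, and with TMM 1.13 for H4. Without its gene with most counts it was 5.12 for H1, 0.586 for H2A, 1.98 for H2B, 0.583 for H3 and 1.2802 for H4. These ratios had no test, and the cause of each shift was not tested. The replicate numbers share nothing stated in the labels. Deviations of same-numbered libraries correlated at 0.00704 to 0.0503, and 7 of the 8 libraries correlated best with their own number. With the replicate block 7 histone genes were higher and 1 lower, and over all genes 5889 and 6125. Few counts limit most of these genes: 22 of the 60 had 1 to 9 counts over the 8 libraries.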

Other observations

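Among histone genes too rarely counted to pass the filter, 4 were noticed after their values were seen. The H4 gene HIST1H4H had 0, 0, 2 and 1 counts in DMSO and 6, 7, 9 and 7 in PZH, a ratio per unit depth of 10.2 with an exact binomial 95% interval of 3.16 to 52.3. HIST1H4A had 2, 1, 2 and 4 counts in DMSO and 0 in each PZH library. With PZH set to a floor of 3 counts over the group it was 2.84-fold lower, which is not a confidence bound. HIST1H2BF, with 0, 2, 6 and 0 counts in DMSO and 0 in each PZH library, was 2.53-fold lower on the same floor. DMSO replicate 3 held 6 of its 8 counts, and without that library the rest lie under the floor and give no value. HIST1H4H was called higher, and HIST1H4A and HIST1H2BF lower, by edgeR's test when no filter was applied. HIST1H4K went from 26 to 8 summed counts, but 0% of the 50-base stretches in its transcript model are its own.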
